A study of Mus musculus with 9 samples.

Results

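The forkhead (Fox), Sox and T-box (Tbx) genes are 3 families of transcription factors, and 71 of them were read on the arrays: 43 Fox, 18 Sox and 10 Tbx genes out of 19661 genes with a probe set of their own. They were picked by symbol alone (Fox with a letter from a to s and a digit, Sox or Tbx with a number), without a few genes of these families that were not analysed here. The Fox genes include Foxl2os, a noncoding RNA made opposite Foxl2. Where a gene had several probe sets, the brightest on average was read, which concerned Foxf1 and Foxn3.

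The arrays compared mouse myoblasts overexpressing Pax7, myoblasts overexpressing Pax3 and myoblasts with an empty vector (control), with 3 arrays per group. All were skeletal muscle myoblasts, the dividing precursors of muscle fibres, of Balb/c background, grown in F10 medium with 20% serum and 4 ng/ml of the growth factor bFGF. The control titles carry the name CTAP, which the labels do not explain. The labels give no promoter and do not say whether the cells were clones, pools or separate cultures, so the p-values reflect the spread among these samples alone, and that spread may be technical. The comparisons ask which genes differ between the arrays of each factor and control arrays, and where the factors differ.

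Expression was read as log2 intensity, array medians lay between 6.40 and 6.48, and precision was limited by having 3 arrays per group. Pax7 averaged 12.28 ± 0.030 in Pax7 arrays, 8.18 ± 0.065 in Pax3 arrays and 10.51 ± 0.081 in control arrays (SD, n = 3 each). Pax3 averaged 6.82 ± 0.039 in Pax7 arrays, 11.05 ± 0.046 in Pax3 arrays and 5.83 ± 0.071 in control arrays (SD, n = 3 each). Pax3 arrays therefore also held 5.02-fold less Pax7 transcript than control arrays, and Pax7 arrays had 1.99-fold more Pax3 signal (limma adjusted p = 9.86e-11 and 2.37e-08). The Pax3 means of Pax7 and control arrays lay near or under those of the Y-linked gene Sry, read further below (6.77 and 6.70). That rise does not by itself show that Pax3 was expressed there. The myoblast markers Myod1, Chrna1 and Myf5 stood at 12.18, 12.25 and 11.42 in Pax7 arrays, 12.50, 12.44 and 11.37 in Pax3 arrays and 12.62, 12.35 and 9.40 in control arrays. They belong to a list of 8 markers. Against control, 5 of the 8 fell and 1 rose in Pax7 arrays, and 4 fell and 1 rose in Pax3 arrays. Xist, the RNA of the inactive X chromosome, stood at 11.72 ± 0.033 in Pax7, 11.96 ± 0.071 in Pax3 and 4.77 ± 0.126 in control arrays (SD, n = 3 each), while the Y-linked Uty stood at 3.77, 3.85 and 9.27. Sex-linked expression therefore differed along with the overexpressed factor in both comparisons against control. For every gene in those comparisons, these differences and any difference in the source of the cells cannot be told apart. Whether control cells came from an animal of the other sex was not tested. Pax7 minus Pax3 arrays gave -0.24 for Xist and -0.08 for Uty.

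All 3 families recognise DNA through a folded domain that gives each its name or is shared with relatives: the winged helix of forkhead proteins, the HMG box of Sox proteins and the T-box. In muscle and its neighbours they are known for distinct tasks. FoxO factors connect insulin signalling to growth arrest and protein breakdown, Foxm1 drives the genes of cell division, and Sox9 directs cartilage. T-box factors pattern limbs, heart and somites. Pax3 and Pax7 are paired-box factors of muscle precursors and satellite cells, which bind DNA through a paired domain and a homeodomain.

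Few of the 71 genes moved far. Tbx20, a heart T-box factor, had the largest measured fall, 6.66-fold in Pax7 and 5.39-fold in Pax3 arrays against control. Foxf2, a factor of embryonic mesenchyme, had the largest measured rise, 2.66-fold and 3.13-fold. The lower means of both genes lay under 5.52, the 95th percentile of group means of 1184 olfactory and vomeronasal receptor genes, which serve here as genes that myoblasts are not known to use. Set against that percentile in place of the lower mean, the fall of Tbx20 was 3.83-fold in both comparisons. The rise of Foxf2 was then 2.54-fold in Pax7 and 2.98-fold in Pax3 arrays. These are not guaranteed minima, because the floor of each probe set was not measured. Sox9 and Foxp1 fell and Sox11 and Tbx4 rose by smaller amounts in both comparisons, which share the control arrays. Foxc1, a factor of early mesoderm, was lower in Pax7 than in Pax3 arrays and lower in Pax7 than in control arrays. These 7 were the genes past the threshold with a change of at least 0.5 log2 units in any comparison.

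The first sequences belong to the gene that fell most and the gene that rose most. They are followed by Foxc1, which lies next to Foxf2 and moved otherwise, and by Sox11, the highest riser of the Sox genes. Each is the run of 250 bases before the gene's start in RefSeq on GRCm38.p6, given 5′ to 3′ on the gene's strand. Capitals mark ATTA, the core bound by homeodomains, searched on both strands. GTCACGC, a paired-domain core with no overlap with ATTA, was searched the same way.
Tbx20, chr9:24774304-24774553, minus strand: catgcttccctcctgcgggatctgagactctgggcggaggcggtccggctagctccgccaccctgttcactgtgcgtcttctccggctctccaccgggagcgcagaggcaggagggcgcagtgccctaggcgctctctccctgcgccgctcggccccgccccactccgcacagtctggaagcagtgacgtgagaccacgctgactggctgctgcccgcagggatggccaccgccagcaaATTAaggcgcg
Foxf2, chr13:31625566-31625815, plus strand: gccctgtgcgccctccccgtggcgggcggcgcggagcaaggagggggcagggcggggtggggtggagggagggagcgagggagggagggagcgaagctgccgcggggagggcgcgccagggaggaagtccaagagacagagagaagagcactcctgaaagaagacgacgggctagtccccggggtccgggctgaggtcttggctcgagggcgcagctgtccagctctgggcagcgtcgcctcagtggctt
Foxc1, chr13:31806396-31806645, plus strand: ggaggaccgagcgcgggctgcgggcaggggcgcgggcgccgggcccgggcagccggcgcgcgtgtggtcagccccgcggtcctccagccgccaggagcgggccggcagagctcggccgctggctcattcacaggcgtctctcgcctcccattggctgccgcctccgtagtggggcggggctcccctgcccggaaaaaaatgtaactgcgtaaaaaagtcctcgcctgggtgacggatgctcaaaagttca
Sox11, chr12:27342719-27342968, minus strand: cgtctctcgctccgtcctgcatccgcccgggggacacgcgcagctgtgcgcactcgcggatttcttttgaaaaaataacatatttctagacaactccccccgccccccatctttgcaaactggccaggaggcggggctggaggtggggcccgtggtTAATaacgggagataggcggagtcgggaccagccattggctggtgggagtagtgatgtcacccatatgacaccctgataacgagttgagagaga
Tbx20 held 1 ATTA, at 11 bases before its start, and Sox11 held 1, at 94 bases before its start. Foxf2 and Foxc1 held 0 copies of ATTA in these windows. GTCACGC had 0 matches in the 4 windows printed. Of all 32851 promoter windows of this length, 54.9% held ATTA and 1.78% held GTCACGC. Windows were on hand for 48 of the 71 genes (60 windows), of which 48.3% held ATTA and 3.33% GTCACGC. A match is a stretch of letters only, and no binding was measured.

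In Pax7 arrays 25 of the 71 genes passed the threshold against control (35.2%), 19 upward and 6 downward, in limma's moderated test with an adjusted p under 0.05. Over all 19661 genes 43.2% passed, 21.6% upward and 21.5% downward. The share among the 71 lay below that, but calls were rarer among dim genes. Of the 71 genes, 47 had a mean under the median of all genes. Of those 47, 27.7% passed, against 21.3% of all genes under that median. Of the 24 over it, 50% passed, against 65.0% of all genes over it. The median log2 fold change was 0.08 over the 71 genes and 0.03 over all genes. Of the 25 calls, 15 held when any single array was left out, 10 upward and 5 downward. Without control replicate 2, 16 calls were made, the fewest among the 9 such fits, and 38.2% of all genes passed. In limma's treat test, 7 of the 71 genes lay beyond 1.2-fold, against 19.4% of all genes. Calls with at least 1 log2 unit numbered 2 of the 71 genes, against 6.58% of all genes.

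In Pax3 arrays 19 of the 71 genes passed against control (26.8%), 10 upward and 9 downward, while 39.6% of all genes passed, 19.8% upward and 19.7% downward. The median log2 fold change was 0.06 over the 71 genes and 0.02 over all genes. Of these calls, 14 held when any single array was left out, 8 upward and 6 downward. In the treat test 4 of the 71 genes lay beyond 1.2-fold, against 16.6% of all genes. With at least 1 log2 unit, 2 of the 71 were called, against 4.8% of all genes. Arrays of the compared groups were fully separate for 41 of the 71 genes between Pax7 and control, where 55.5% of all genes were, and for 25 between Pax3 and control, where 45.1% were.

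**Figure D1:**
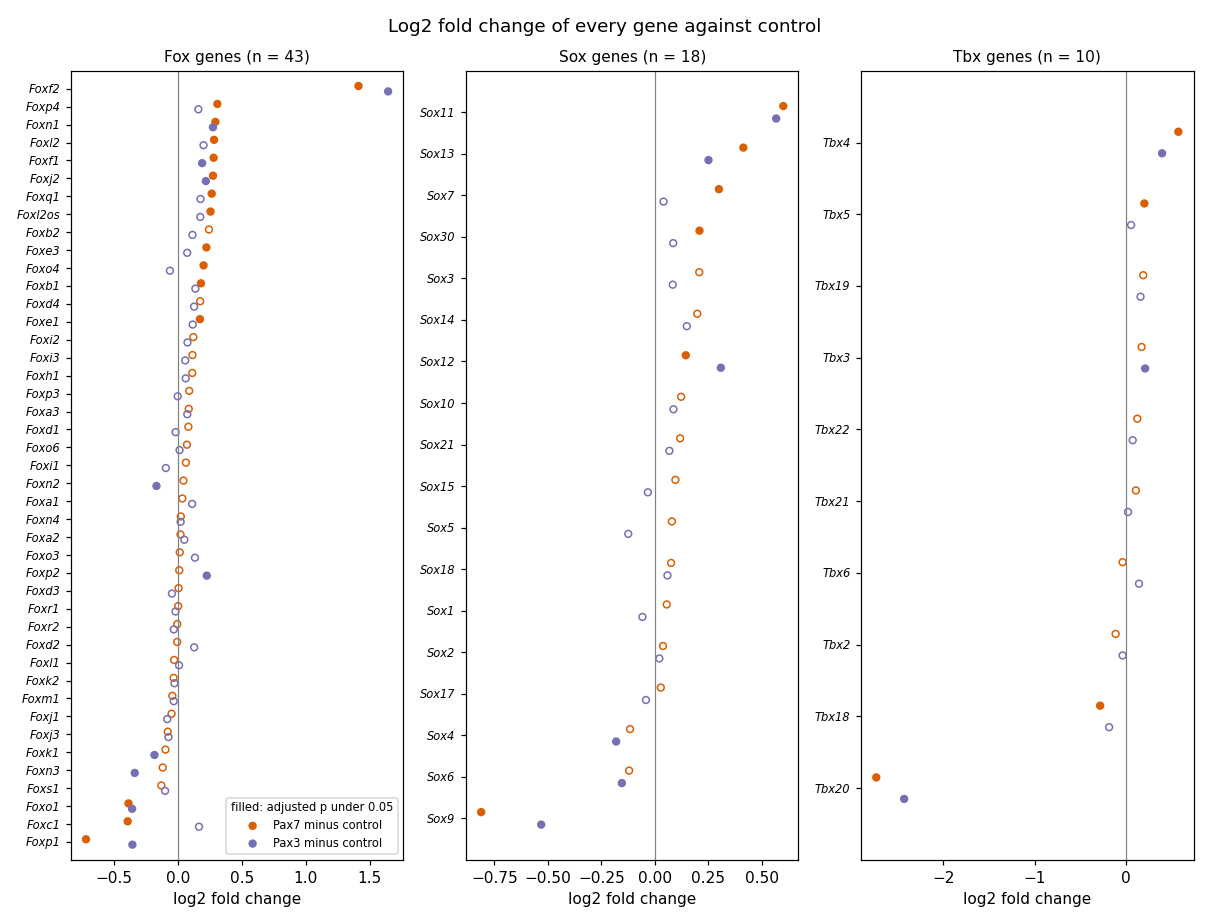
Log2 fold change (horizontal axis, on its own scale per panel) of each of the 43 Fox, 18 Sox and 10 Tbx genes, with Pax7 minus control above Pax3 minus control for each gene; filled points passed an adjusted p under 0.05. Tbx20 lies at -2.74 and -2.43 and Foxf2 at 1.41 and 1.64, while most open points sit near 0.

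Among the T-box genes, Tbx20, which shapes the heart, had log2 intensities of 4.61, 4.86 and 4.70 in Pax7 arrays, 5.07, 4.94 and 5.08 in Pax3 arrays and 7.47, 7.38 and 7.54 in control arrays. Control arrays stood clear above both other groups, and no arrays overlapped between any pair of groups. The change was -2.74 ± 0.071 in Pax7 and -2.43 ± 0.071 in Pax3 arrays (SE, n = 3 per group; limma adjusted p = 1.49e-10 and 6.12e-10). The Pax7 and Pax3 means lay under the receptor percentile. In bulk samples, fewer cells with the transcript and less of it per cell cannot be told apart.

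Tbx4, a factor of the hindlimb, stood at 6.82, 6.80 and 6.76 in Pax7 arrays, 6.52, 6.67 and 6.66 in Pax3 arrays and 6.30, 6.06 and 6.30 in control arrays. Both Pax groups lay above every control array. The rise was 0.57 ± 0.069 in Pax7 and 0.39 ± 0.069 in Pax3 arrays (SE, n = 3 per group; limma adjusted p = 3.85e-05 and 0.000754). Its neighbour Tbx2, the adjacent coding gene on chromosome 11, was at -0.11 and -0.04 and did not pass.

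Of the other T-box genes, Tbx18, a factor of heart and urogenital mesenchyme, was at 8.32, 8.31 and 8.26 in Pax7 arrays, 8.44, 8.56 and 8.18 in Pax3 arrays and 8.55, 8.65 and 8.54 in control arrays. The Pax7 arrays lay below all control arrays, and the Pax3 arrays overlapped both groups. It fell by 0.28 ± 0.082 in Pax7 arrays (limma adjusted p = 0.0162), a call that ended without Pax7 replicate 3 or without control replicate 2 (adjusted p up to 0.0658), and was at -0.19 in Pax3 arrays without passing. Tbx3 rose by 0.21 in Pax3 arrays, and the call was lost when any of 3 arrays was left out alone (limma adjusted p up to 0.0826). Tbx5, the forelimb counterpart of Tbx4, rose by 0.20 in Pax7 arrays, but its group means of 4.64 in Pax7 and 4.44 in control arrays lay under the receptor percentile and the call ended when any of 4 arrays was left out alone (limma adjusted p up to 0.108). Tbx2, Tbx6 of the somites, Tbx19, Tbx21 of T helper cells and Tbx22 passed in none of the 3 comparisons.

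**Figure D2:**
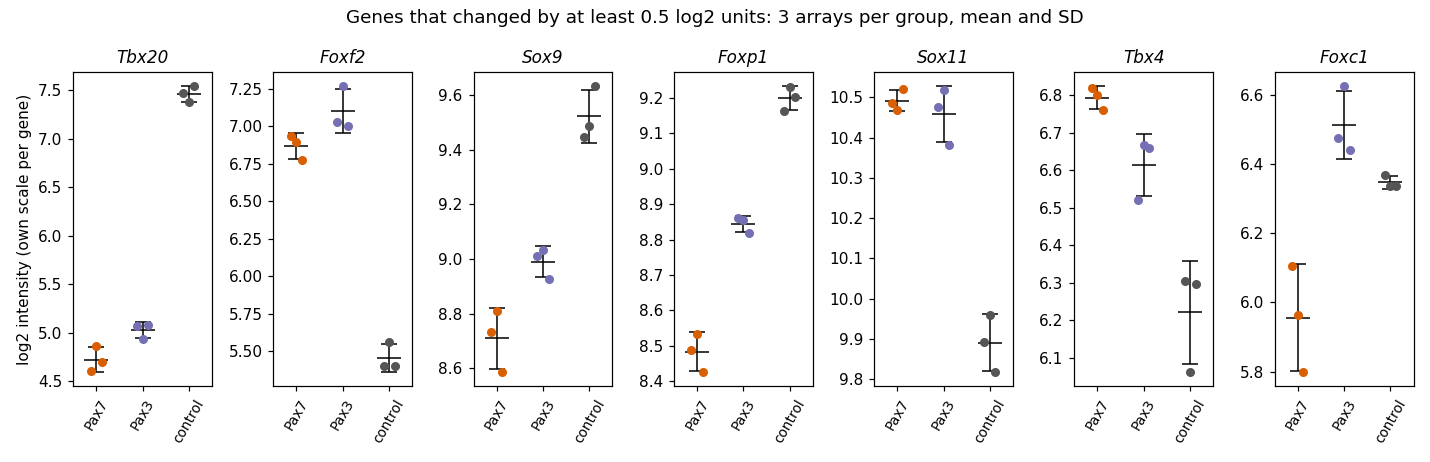
Log2 intensity (vertical axis, its own scale for each gene) in the 3 Pax7, 3 Pax3 and 3 control arrays for the 7 genes that changed by at least 0.5 log2 units; points are arrays, and bars give the mean and SD of 3. For Tbx20, Sox9 and Foxp1 the control arrays are highest, and for Foxf2, Sox11 and Tbx4 they are lowest.

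Among the forkhead genes, Foxf2 was at 6.94, 6.90 and 6.77 in Pax7 arrays, 7.03, 7.27 and 7.003 in Pax3 arrays and 5.40, 5.56 and 5.40 in control arrays. Every Pax7 and Pax3 array lay above every control array, and the control mean of 5.46 lay under the receptor percentile. Foxf2 rose by 1.41 ± 0.078 in Pax7 and 1.64 ± 0.078 in Pax3 arrays (SE, n = 3 per group; limma adjusted p = 5.78e-08 and 2.49e-08). Its paralogue Foxf1, of lateral mesoderm, rose by 0.28 ± 0.066 in Pax7 arrays (limma adjusted p = 0.00486). Its rise in Pax3 arrays was 0.19 ± 0.066 (limma adjusted p = 0.0409), and the call was lost when any of 6 arrays was left out alone (adjusted p up to 0.163). A further Foxf1 probe set gave 0.43 and 0.23.

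Foxf2 lies between Foxq1 and Foxc1 on chromosome 13, with no other coding gene between them in the RefSeq table. Foxc1, which acts in early mesoderm and blood vessels, was at 6.11, 5.96 and 5.80 in Pax7 arrays, 6.48, 6.63 and 6.44 in Pax3 arrays and 6.37, 6.34 and 6.34 in control arrays. Pax7 arrays lay below all others, and Pax3 arrays lay above control arrays. It fell by 0.39 ± 0.075 in Pax7 arrays (limma adjusted p = 0.00131) and was at 0.17 ± 0.075 in Pax3 arrays without passing (adjusted p = 0.111). Foxq1 rose by 0.27 ± 0.084 in Pax7 arrays (limma adjusted p = 0.0251), and the call was lost when any of 4 arrays was left out alone (adjusted p up to 0.106), and was at 0.18 in Pax3 arrays. The 3 neighbours thus had log2 fold changes of 0.27, 1.41 and -0.39 in Pax7 arrays and 0.18, 1.64 and 0.17 in Pax3 arrays, in the order Foxq1, Foxf2, Foxc1.

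The FoxP genes encode repressors that pair with each other. Foxp1, the member best known from heart and lymphocytes, was at 8.49, 8.53 and 8.43 in Pax7 arrays, 8.86, 8.86 and 8.82 in Pax3 arrays and 9.16, 9.23 and 9.20 in control arrays. The groups formed 3 separate steps with no overlap. The log2 fold change was -0.72 ± 0.043 in Pax7 and -0.35 ± 0.043 in Pax3 arrays (SE, n = 3 per group; limma adjusted p = 1.34e-07 and 5.4e-05). Foxp4 moved the other way in Pax7 arrays, by 0.31 ± 0.061 (limma adjusted p = 0.0015), and was at 0.16 in Pax3 arrays without passing. Foxp2 rose by 0.23 ± 0.053 in Pax3 arrays (limma adjusted p = 0.00534) and was at 0.01 in Pax7 arrays, and Foxp3 of regulatory T cells did not pass in either.

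FoxO factors are kept out of the nucleus by the kinase Akt and act on growth arrest and muscle wasting genes. Foxo1 was at 9.53, 9.58 and 9.52 in Pax7 arrays, 9.56, 9.65 and 9.51 in Pax3 arrays and 9.87, 9.93 and 9.99 in control arrays. Both Pax groups lay below every control array and overlapped each other. Foxo1 fell by 0.38 ± 0.050 in Pax7 and 0.36 ± 0.050 in Pax3 arrays (SE, n = 3 per group; limma adjusted p = 6.93e-05 and 0.000145). The X-linked Foxo4 rose by 0.20 ± 0.062 in Pax7 arrays (limma adjusted p = 0.0212), and the call was lost when any of 4 arrays was left out alone (adjusted p up to 0.0843), and was at -0.06 in Pax3 arrays. Foxo3 was at 0.02 and 0.13 and Foxo6 at 0.07 and 0.01 in Pax7 and Pax3 arrays, and neither passed. Since Akt acts on the proteins, their activity was not measured by these RNA levels.

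Foxm1, which switches on genes of mitosis, did not pass in any comparison and averaged 9.76 ± 0.0086 in Pax7, 9.77 ± 0.038 in Pax3 and 9.80 ± 0.051 in control arrays (SD, n = 3 each). Its differences from control were -0.04 ± 0.043 and -0.03 ± 0.043 (SE). Foxk2, a broadly expressed repressor, likewise gave -0.03 ± 0.040 and -0.03 ± 0.040. Its paralogue Foxk1, known from muscle progenitors, fell by 0.18 ± 0.044 in Pax3 arrays (limma adjusted p = 0.00664) and was at -0.10 in Pax7 arrays.

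Smaller forkhead changes filled most of the remaining calls. Foxj2 rose by 0.28 ± 0.050 in Pax7 and 0.22 ± 0.050 in Pax3 arrays (limma adjusted p = 0.000863 and 0.00423). Foxn1, known from thymus epithelium, rose by 0.29 ± 0.060 and 0.28 ± 0.060 (adjusted p = 0.00196 and 0.00332). Its means were 6.77 in Pax7, 6.76 in Pax3 and 6.48 in control arrays. Foxn3, a repressor tied to cell cycle checkpoints, fell by 0.34 ± 0.063 in Pax3 arrays (limma adjusted p = 0.00128), was at -0.12 in Pax7 arrays, and gave -0.25 and 0.05 at its further probe set for Pax3 and Pax7. Foxn2 fell by 0.17 in Pax3 arrays, and the call was lost when any of 6 arrays was left out alone (limma adjusted p up to 0.126).

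Foxl2 of the ovary and its antisense RNA Foxl2os rose by nearly equal amounts in Pax7 arrays, 0.28 ± 0.075 and 0.26 ± 0.068 (limma adjusted p = 0.01 and 0.00984). In Pax3 arrays they were at 0.20 and 0.18 without passing. Foxl2 averaged 6.94 in Pax7, 6.86 in Pax3 and 6.66 in control arrays, and Foxl2os 6.65, 6.57 and 6.40. Whether the probe sets tell the strands of this locus apart was not tested. Foxb1, Foxe1 of the thyroid and Foxe3 of the lens rose by 0.18, 0.17 and 0.22 in Pax7 arrays. Leaving out any of 4, 6 and 5 single arrays ended these calls (limma adjusted p up to 0.104, 0.14 and 0.108).

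The Sox genes gave 5 rises, 1 fall and 12 not past in Pax7 arrays. In Pax3 arrays they gave 3 rises, 3 falls and 12 not past. In each comparison 33.3% passed, against 43.2% of all genes in Pax7 and 39.6% in Pax3 arrays. Sox9, the cartilage regulator, was at 8.73, 8.81 and 8.59 in Pax7 arrays, 9.01, 9.03 and 8.93 in Pax3 arrays and 9.45, 9.49 and 9.63 in control arrays. The groups did not overlap, with control arrays highest and Pax7 arrays lowest. It fell by 0.81 ± 0.068 in Pax7 and 0.53 ± 0.068 in Pax3 arrays (SE, n = 3 per group; limma adjusted p = 1.88e-06 and 7.15e-05). Sox10, the neural crest member of the same SoxE group, was at 0.12 and 0.09 and did not pass.

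The SoxC genes Sox4, Sox11 and Sox12 act in neural and mesenchymal progenitors. Sox11 was at 10.48, 10.47 and 10.52 in Pax7 arrays, 10.48, 10.52 and 10.38 in Pax3 arrays and 9.89, 9.96 and 9.82 in control arrays. Both Pax groups stood above every control array and overlapped each other. It rose by 0.60 ± 0.051 in Pax7 and 0.57 ± 0.051 in Pax3 arrays (SE, n = 3 per group; limma adjusted p = 2.37e-06 and 4.76e-06).

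Sox12 was at 8.73, 8.76 and 8.69 in Pax7 arrays, 8.85, 8.95 and 8.87 in Pax3 arrays and 8.55, 8.56 and 8.65 in control arrays, so that Pax3 arrays were highest and control arrays lowest. It rose by 0.31 ± 0.047 in Pax3 arrays (limma adjusted p = 0.00026) while the Pax7 rise of 0.15 ± 0.047 (adjusted p = 0.0267) was a call ending when any of 4 arrays was left out alone (adjusted p up to 0.0931). Sox4 fell by 0.18 ± 0.061 in Pax3 arrays (limma adjusted p = 0.0366, up to 0.116 when any of 5 arrays was left out alone) and was at -0.12 in Pax7 arrays.

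The SoxD genes lack an activation domain of their own. Sox13 rose by 0.41 ± 0.041 in Pax7 and 0.25 ± 0.041 in Pax3 arrays (limma adjusted p = 7.49e-06 and 0.000436), with 7.64, 7.63 and 7.62 in Pax7, 7.44, 7.44 and 7.52 in Pax3 and 7.19, 7.25 and 7.22 in control arrays, without overlap. Sox6, which represses slow-fibre genes in muscle, fell by 0.15 ± 0.053 in Pax3 arrays (limma adjusted p = 0.0409), and the call was lost when any of 8 arrays was left out alone (adjusted p up to 0.161). Sox7 of the endothelium and Sox30 of male germ cells rose by 0.30 and 0.21 in Pax7 arrays, calls that ended when any of 4 and 3 arrays was left out alone (limma adjusted p up to 0.131 and 0.0846). The SoxB genes Sox1, Sox2, Sox3, Sox14 and Sox21, as well as Sox15, Sox17 and Sox18, passed in none of the 3 comparisons.

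Between Pax7 and Pax3 arrays 11 of the 71 genes passed (15.5%), 5 higher and 6 lower in Pax7, against 16.9% of all genes (8.33% higher and 8.54% lower). Arrays of both groups were fully separate for 17 of the 71 genes, against 29.4% of all genes. Of all genes 0.895% were called with at least 1 log2 unit, and the largest difference among the 71 was the 0.56 of Foxc1. The calls for 2 genes, Foxc1 and Foxp1, held when any single array was left out. The count was 4 without Pax7 replicate 1, 4 without Pax7 replicate 2, 6 without Pax7 replicate 3, 4 without Pax3 replicate 1, 7 without Pax3 replicate 2 and 16 without Pax3 replicate 3. Over all genes, the lowest share in these fits was 12.8%, without Pax7 replicate 2 and without Pax7 replicate 3. The highest was 21.8%, without Pax3 replicate 3, so the highest count among the 71 went with the highest share of all genes. In the treat test 1 of the 71 genes lay beyond 1.2-fold, against 3.99% of all genes. Foxc1 was lower in Pax7 arrays by -0.56 ± 0.075 and Foxp1 by -0.36 ± 0.043 (limma adjusted p = 0.000385 and 0.000167).

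Tbx20, with both means (4.72 in Pax7, 5.03 in Pax3) under the receptor percentile, gave -0.30 ± 0.071 (limma adjusted p = 0.0126), lost without Pax7 replicate 1, Pax7 replicate 3 or Pax3 replicate 1 (adjusted p up to 0.0564). Sox9 differed by -0.28 ± 0.068 (limma adjusted p = 0.0152), lost without Pax7 replicate 3, Pax3 replicate 1 or Pax3 replicate 2 (adjusted p up to 0.0632). Foxp2 at -0.21 and Sox12 at -0.16 were also lower in Pax7, and Foxo4 at 0.26, Foxn3 at 0.22, Foxn2 at 0.21, Sox5 at 0.20 and Sox13 at 0.16 were higher. Each of these 7 calls ended when any of at least 2 arrays was left out alone (limma adjusted p up to 0.139). Foxf2 at -0.23 ± 0.078 did not pass (limma adjusted p = 0.0704), though it did with the replicate number as a block (adjusted p = 0.0206) and without Pax3 replicate 3 (0.0376). Sox11 at 0.03 ± 0.051 did not pass (limma adjusted p = 0.759).

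**Figure D3:**
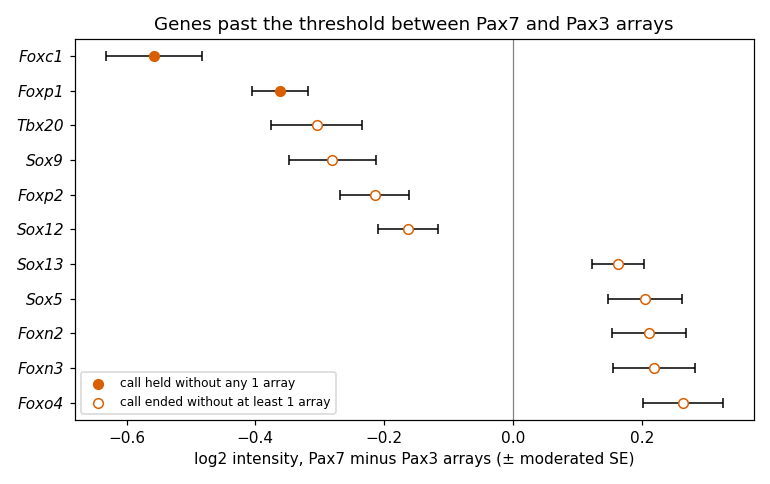
Difference in log2 intensity, Pax7 minus Pax3 arrays (horizontal axis), for the 11 genes past the threshold, with moderated standard errors; filled points mark calls that held without any single array and open points those that did not. Foxc1 and Foxp1 are the filled points, at -0.56 and -0.36.

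Most of the remaining genes gave no call. Of the 71, 38 passed in none of the 3 comparisons, and every gene appears in the plot of fold changes. Genes that did not pass spanned -0.13 to 0.24 in Pax7 and -0.19 to 0.20 in Pax3 arrays against control, and -0.23 to 0.26 for Pax7 minus Pax3. For 15 genes all 3 group means lay under the receptor percentile of 5.52, among them Sox2, Sox17, Foxa3 and Tbx22, and 2 of these 15 (Sox30 and Tbx5) rose against control in Pax7 arrays by limma. A mean above that percentile does not by itself show expression. Sry, the Y-linked founder of the Sox family, stood at 6.77 in Pax7, 6.71 in Pax3 and 6.70 in control arrays, although Uty lay far higher in control arrays than in the others. Foxn1, Foxl2, Foxl2os and Foxf1 had group means near or under those of Sry, so their rises do not show that these genes were expressed. The same limit holds for other dim genes, among them Tbx4 (6.79 in Pax7, 6.61 in Pax3 and 6.22 in control arrays) and Foxc1 (5.96, 6.51 and 6.35). Foxp2, Foxq1 and Tbx3 also lay under Sry in all groups. Foxf2, at 6.87 in Pax7 and 7.10 in Pax3 arrays, stood only somewhat above Sry. Of the 47 genes with a mean under the median of all genes, 11 rose (23.4%) and 2 fell (4.3%) in Pax7 arrays. Of all genes under that median, 12.3% rose and 9.04% fell. In Pax3 arrays 6 of the 47 rose (12.8%) and 2 fell (4.3%), against 9.0% and 8.5%. The 1184 receptor genes leaned upward as well, with 3.63% up and 0.59% down in Pax7 arrays and 2.79% and 0.42% in Pax3 arrays. An upward lean of dim genes was thus not particular to these families. Of the 24 genes over the median, 8 rose (33.3%) and 4 fell (16.7%) in Pax7 arrays, against 31.0% and 34.0% of all genes over it. In Pax3 arrays 4 rose (16.7%) and 7 fell (29.2%), against 30.7% and 31.0%.

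Genes that these factors are known to control, or that control them, were read from lists written from general knowledge with earlier results of these data known. Against control, 43.2% of all genes passed in Pax7 and 39.6% in Pax3 arrays. Of all genes over the median intensity, 65.0% and 61.7% passed, and of those under it 21.3% and 17.5%. Of 21 measured FoxO targets, 6 rose, 8 fell and 7 did not pass in Pax7 arrays (66.7% passed), with a median log2 fold change of 0.01. In Pax3 arrays 8 rose, 7 fell and 6 did not pass (71.4% passed), with a median of 0.06. The repressor Bcl6 fell (-2.08 in Pax7 and -1.70 in Pax3), as did Pdk4, which blocks entry of pyruvate into mitochondria (-1.84 and -1.87), and the stress protein gene Sesn3 (-1.50 and -1.13), while catalase Cat rose (1.42 and 0.83). All 8 of these calls passed in limma with adjusted p of at most 1.05e-07. These targets moved in both directions, and several are also controlled by other factors.

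FoxO regulators moved in both directions too, with 4 rises, 6 falls and 7 of 17 not past in Pax7 arrays (58.8% passed). In Pax3 arrays the counts were 4, 5 and 8 (52.9% passed). The medians were -0.07 and -0.06. The kinase gene Sgk3 rose (2.09 in Pax7 and 1.11 in Pax3), and the ubiquitin protease gene Usp7 (-1.24 and -1.18), the kinase gene Sgk1 (-1.09 and -0.95) and the deacetylase gene Sirt1 (-0.96 in Pax7) fell in both. Among 19 Foxm1 targets, 1 rose, 6 fell and 12 did not pass in Pax7 arrays (36.8% passed). In Pax3 arrays 3 rose, 2 fell and 14 did not pass (26.3% passed). The medians were 0.00 and 0.02. The phosphatase gene Cdc25b rose (0.75 and 0.81), and the mitotic kinase gene Nek2 (-0.36 and -0.18) and the phosphatase gene Cdc25c (-0.31 and -0.25) fell.

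Of 18 cartilage targets of Sox9, 4 rose and 14 did not pass in Pax7 arrays (22.2% passed). In Pax3 arrays 3 rose and 15 did not pass (16.7% passed). Many of the 18 lay under the median intensity, where 21.3% of all genes passed in Pax7 and 17.5% in Pax3 arrays. The medians were 0.10 and 0.06. The matrix gene Acan was at 7.46 in Pax7, 5.85 in Pax3 and 5.37 in control arrays, a rise of 2.09 and 0.48, and the sulphate enzyme gene Papss2 (1.09 and 1.30) and the receptor gene Fgfr3 (0.50 and 0.59) rose as well. Col2a1, a direct cartilage target, was at 0.11 and 0.09 without passing. Among 14 measured relatives with an HMG box or T-box but other names, 2 rose, 5 fell and 7 did not pass in Pax7 arrays (50% passed). In Pax3 arrays 1 rose, 7 fell and 6 did not pass (57.1% passed). The medians were -0.08 and -0.16. The Wnt effectors Lef1 (-1.59 and -1.33) and Tcf7l2 (-1.50 and -1.28) and the repressor gene Hbp1 (-0.42 and -0.35) fell, and the T-box gene Eomes rose (1.06 and 0.36).

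**Figure D4:**
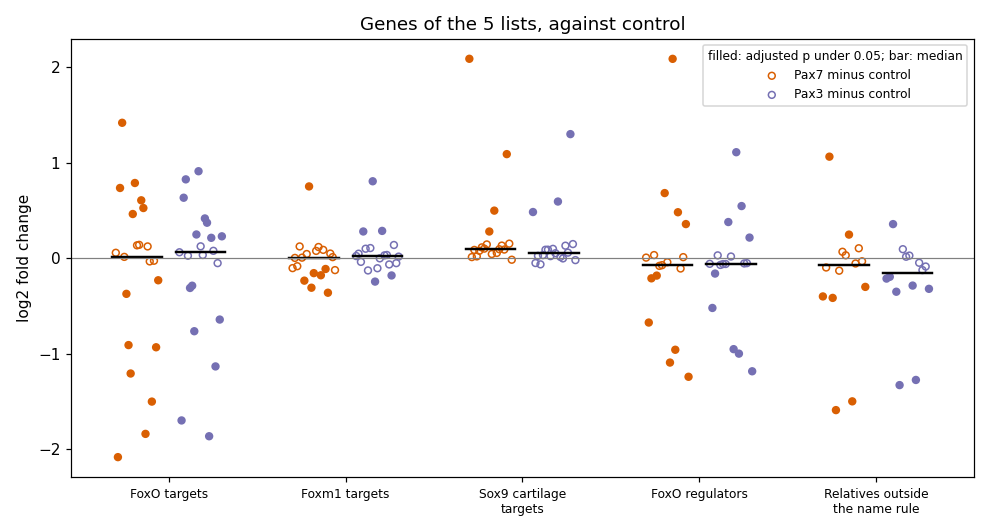
Log2 fold change against control (vertical axis) of each gene in the 5 lists, Pax7 left and Pax3 right within each list; filled points passed an adjusted p under 0.05 and black bars are medians. The medians lie between -0.16 and 0.10, while single genes reach from -2.08 to 2.09.

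Markers of other cell types were read beside these results, and their part in the results was not tested. For comparison with the marker counts, 21.6% of all genes rose and 21.5% fell in Pax7 arrays against control. In Pax3 arrays 19.8% rose and 19.7% fell. In the macrophage and leukocyte list, 2 of 6 rose in each comparison against control (Cd68 and Laptm5), and its summed log2 level ranged over 10.02 to 10.10 in Pax7, 9.83 to 9.99 in Pax3 and 8.52 to 8.64 in control arrays. The defining markers Ptprc, Adgre1 and Csf1r were under the receptor percentile in all 3 groups. In the neural crest and glia list, 3 of 5 measured fell in each (Fabp7, Erbb3 and Tfap2a, the last under the percentile throughout as was S100b), with sums of 9.73 to 9.74 in Pax7, 9.35 to 9.43 in Pax3 and 10.55 to 10.81 in control arrays. In the epithelial list, 3 of 5 rose in each (Krt18, Krt8 and Epcam), with sums of 9.44 to 9.63, 8.53 to 8.60 and 8.21 to 8.31, for Pax7, Pax3 and control. Cdh1 and Cldn7 were under the percentile throughout, and Epcam in Pax3 and control arrays.

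In the chondrocyte list, which shares Acan with the Sox9 targets, 1 of 5 rose in each comparison against control, with sums of 8.77 to 8.91 in Pax7, 8.29 to 8.50 in Pax3 and 8.22 to 8.27 in control arrays. Matn1 and Cnmd were under the percentile throughout, and Acan in control arrays. In the endothelial list, 2 of 7 rose in Pax7 and 1 in Pax3 arrays, with sums of 8.34 to 8.37, 8.23 to 8.36 and 8.16 to 8.22 for Pax7, Pax3 and control, and Kdr, Emcn and Esam under the percentile throughout. Tek rose in both, at 5.65 in Pax7, 5.28 in Pax3 and 4.90 in control arrays, the last pair under the percentile, and Cdh5 rose in Pax7 arrays. Fibroblast markers gave 1 rise (Pdgfra) and 1 fall (Col3a1) of 6 in each, Dcn and Lum being under the percentile, with sums of 9.04 to 9.13, 9.28 to 9.45 and 9.35 to 9.45. Of 4 adipocyte markers 2 rose in Pax7 and 0 in Pax3 arrays, with sums of 7.56 to 7.65, 7.34 to 7.63 and 7.32 to 7.43. Whether or not they rose, Adipoq and Fabp4 were under the percentile in all 3 groups, and Cidec was in control arrays. Myoblast markers gave 1 rise (Myf5) and 5 falls of 8 in Pax7 and 1 rise and 4 falls in Pax3 arrays, with sums of 14.17 to 14.19, 14.47 to 14.50 and 14.60 to 14.63. Des (-1.33 in Pax7 and -0.52 in Pax3), Ncam1 (-1.13 and -0.53), Itga7 (-0.70 and -0.47) and Cdh15 (-0.65 and -0.73) fell in both. Myod1 fell in Pax7 arrays (-0.43), and Chrna1 and Msc passed in neither.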

How the data were processed

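The authors deposited log2 intensities per probe set of 9 biotin-labelled Affymetrix arrays (Pax7, Pax3 and control, 3 each), made by RMA in R 2.10.0 per the submitters' processing notes. RMA usually includes quantile normalisation, which makes array distributions nearly equal. The build and any probe filter are not stated in the labels. Of 25668 probe sets, 20777 carried 1 symbol in the platform annotation, 232 several and 4659 none. Each of 19661 genes was read from its highest probe set and fitted in limma 3.58.1 (R 4.3.3) with a mean per group over all 9 arrays. P-values were adjusted by Benjamini-Hochberg over all genes, and an adjusted p under 0.05 passed. The fit was also run on simulated data with 200 changed genes, and no result here rests on that run.

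The genes, lists and naming rule were chosen with earlier results of these data known. The rule named genes past the threshold with a change of at least 0.5 log2 units, the 3 brightest genes of each family, up to 4 genes per list and check genes. All other genes, Sry, Col2a1 and single markers among them, were named after their values were seen. Promoters came from RefSeq on GRCm38.p6. Alternatives are given in the closing section.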

Additional observations from a re-analysis of the deposited data

How the results depend on the processing

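Counts of genes past the threshold were recomputed under 8 other settings and without each of the 9 arrays. Without the 50% of genes lowest in mean intensity, which left 24 of the 71 genes, 14 passed between Pax7 and control, 12 between Pax3 and control and 7 between Pax7 and Pax3, against 69.6%, 66.4% and 32.6% of all genes in that set. For the 7 genes that changed by at least 0.5 log2 units, 17 of 21 calls were made over the 3 comparisons, 8 of 9 in that filtered set. The treat test at a fold change of 1.2 gave 7, 4 and 1 for the same 3 comparisons, 11 over the 7 genes and 52 (against 104) over the 5 lists. Of all genes, 19.4%, 16.6% and 3.99% lay beyond that fold change. With the 2 compared groups fitted alone, Pax7 against Pax3 gave 7, against 14.5% of all genes. Single arrays left out gave 16 to 32 (Pax7 against control), 15 to 20 (Pax3 against control), 4 to 16 (Pax7 against Pax3), 15 to 18 (the 7 genes) and 94 to 115 (the lists, an alternative chosen after seeing the data). Over all genes, the shares in these fits ran from 38.2% to 47.1%, 35.1% to 39.4% and 12.8% to 21.8% for the same 3 comparisons. The other settings stayed within 1.5 times of each count, and under these settings no call of the 33 genes that passed anywhere changed direction. With the replicate number as a block, 30, 23 and 11 passed, against 44.3%, 40.2% and 16.9% of all genes. That fit gave 18 over the 7 genes and 104 over the lists. Deviations from group means of same-numbered arrays correlated at -0.026 to 0.225 across genes, and those of other pairs at -0.247 to 0.246, so the numbers were not taken as pairing the samples. As limits, 3 arrays per group and RMA values without detection calls leave low genes undecided, and the cause of each shift in count was not tested.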
